A study of Arabidopsis thaliana with 18 samples.

Results

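The root meristem regulators followed here through 6 genotypes number 10. They were PLT1 (AT3G20840), PLT2 (AT1G51190), PLT3 (AT5G10510), BBM (AT5G17430), WOX5 (AT3G11260), SHR (AT4G37650), SCR (AT3G54220), JKD (AT5G03150), RGI1 (AT5G48940) and RGI2 (AT3G24240). They were chosen by locus, with earlier results of these data known. All 10 were among the 25202 loci of the expression table. All 10 also passed the filter on low values, which kept the 19260 loci that reached 1 FPKM in 3 or more libraries. FPKM relates the fragments of a transcript to its length and to the fragments sequenced in the library. RNA came from roots of 5-day-old Arabidopsis thaliana seedlings on half-strength Murashige and Skoog medium, with 3 libraries per genotype and 18 in all. The control, J0951/Col, held the GAL4 driver line J0951 without the transgene. The other 5 genotypes held the transgene UAS_YUC4 with a driver line and are written J0951/UAS_YUC4 and J0571/UAS_YUC4, as well as Q2500/UAS_YUC4, J0121/UAS_YUC4 and Q0990/UAS_YUC4. In such a pair the GAL4 protein made by the driver line switches on the gene behind UAS, here YUC4, a flavin monooxygenase that makes auxin. The labels do not say in which cells each driver is active. Only J0951/UAS_YUC4 shares its driver with the control, so in the other 4 comparisons driver and transgene changed together and cannot be told apart. The labels do not say how many plants went into a library or whether the 3 libraries of a genotype came from separate cultures. The p-values therefore set group differences only against the scatter between libraries, and that scatter may be technical.

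The growing root tip is kept up by a stem cell niche around a few rarely dividing cells, the quiescent centre. PLETHORA (PLT) proteins, AP2-type transcription factors that include BABY BOOM (BBM), are made in a gradient that is highest in the niche; they respond to accumulated auxin and promote stem cell identity and division. WOX5 is a homeodomain transcription factor of the quiescent centre. SHR is made in the stele and moves outward into the adjoining layer, where it activates SCR, and both GRAS proteins are needed for the quiescent centre and for the division that separates cortex from endodermis. JKD, a zinc finger protein, binds SHR and SCR and limits how far SHR moves. RGI1 and RGI2 are leucine-rich repeat receptor kinases that perceive the sulfated RGF peptides, also called root meristem growth factors, and this signal maintains the PLT proteins.

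YUC4 checked the labels. It was at 0.15 to 0.30 FPKM in J0951/Col and at 31.51 to 896.98 FPKM in the libraries of J0951/UAS_YUC4 and J0571/UAS_YUC4 and in those of Q2500/UAS_YUC4 and J0121/UAS_YUC4. In the libraries labelled Q0990/UAS_YUC4 it was 1.68, 11.95 and 0.29 FPKM, so replicate 3 was inside the control range. Replicate 1 of Q0990/UAS_YUC4 was closest to replicate 2 of J0951/Col, not to a library of its own group. Wherever Q0990/UAS_YUC4 is written, the libraries so labelled are meant. Summed FPKM ran from 650929 to 678093 per library, and the number of reads behind a library is unknown. Replicate 3 of Q2500/UAS_YUC4 was closer to replicate 2 of J0121/UAS_YUC4 than to its own group, with a correlation as low as 0.981 inside the group, although YUC4 set these libraries apart at 87.43 and 896.98 FPKM. The median of all tested genes was higher than in the control by 0.11 on the log2 scale in J0571/UAS_YUC4 and by 0.02 to 0.06 in the other 4 lines. Of the genes called, 58.9% were higher in J0951/UAS_YUC4, 72.1% in J0571/UAS_YUC4, 60.8% in Q2500/UAS_YUC4, 65.6% in J0121/UAS_YUC4 and 40.9% in Q0990/UAS_YUC4. After median-of-ratios scaling these shares were 46.7%, 41.1%, 38.3%, 37.9% and 23.5%, and after quantile normalization 52.2%, 46.4%, 42.8%, 44.2% and 28.5%.

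The calls against J0951/Col that held in every alternative setting that could test them were higher RGI1 in J0951/UAS_YUC4, J0571/UAS_YUC4 and Q2500/UAS_YUC4, higher RGI2 in J0951/UAS_YUC4, Q2500/UAS_YUC4 and J0121/UAS_YUC4, higher PLT1 in J0571/UAS_YUC4, and higher PLT3 and BBM in Q2500/UAS_YUC4. RGI1 and RGI2 are the RGF peptide receptors. SHR and SCR were called by limma in none of the 5 lines, and at an unadjusted p under 0.05 the only one of these 10 comparisons was SHR in Q2500/UAS_YUC4. Of 50 comparisons of a gene in a line with the control, 15 were called higher and 0 lower by limma at an adjusted p under 0.05. By line, 0.187% to 23.8% of all tested genes were called higher and 0.27% to 16.7% lower. At an unadjusted p under 0.05 the counts were 24 and 0, and no share of all genes at that threshold is given beside them. The called differences were between 0.20 and 0.64 on the log2(FPKM + 1) scale. Differences on this scale understate the change of genes with low FPKM. All 5 comparisons share the libraries of J0951/Col. In bulk roots, more or fewer cells of a type cannot be told apart from more or less RNA per cell.

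Of all tested genes, 16.7% were called lower in J0951/UAS_YUC4, 7.63% in J0571/UAS_YUC4, 4.43% in Q2500/UAS_YUC4, 4.57% in J0121/UAS_YUC4 and 0.27% in Q0990/UAS_YUC4. By line, the number called higher was 4 of 10 in J0951/UAS_YUC4 (PLT2, JKD, RGI1, RGI2), where 23.8% of all tested genes were called higher. It was 2 of 10 in J0571/UAS_YUC4 (PLT1, RGI1), where the share of all genes was 19.8%, so that count is near the background. It was 5 of 10 in Q2500/UAS_YUC4 (PLT3, BBM, WOX5, RGI1, RGI2) against 6.88% of all genes, and 4 of 10 in J0121/UAS_YUC4 (PLT3, WOX5, JKD, RGI2) against 8.71%. In Q0990/UAS_YUC4 it was 0 of 10 by limma, also at an unadjusted p under 0.05, and 0.187% of all genes were called higher there. The median difference of the 10 genes from the control was 0.19, 0.21, 0.39, 0.24 and -0.05 in that order of lines, and that of all tested genes was 0.05, 0.11, 0.05, 0.06 and 0.02. After median-of-ratios scaling the number of the 10 genes called higher was 2, 2, 5, 2 and 0 in that order of lines. The number of all genes called higher under that scaling was 3432, 1554, 756, 824 and 52, against 4589, 3805, 1326, 1677 and 36 without it. PLT1 and RGI1 in J0571/UAS_YUC4, the line with the highest median of all genes, were then 0.35 (adjusted p = 0.037) and 0.38 (adjusted p = 0.0079) higher. In Q2500/UAS_YUC4 the 3 libraries were above all 3 control libraries for 10 of 10 genes, an arrangement found in 18.8% of all tested genes. The same was seen for 4 genes in J0951/UAS_YUC4, 7 in J0571/UAS_YUC4, 6 in J0121/UAS_YUC4 and 0 in Q0990/UAS_YUC4, where 31.6%, 35.6%, 25.4% and 13.8% of all genes did so.

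**Figure D1:**
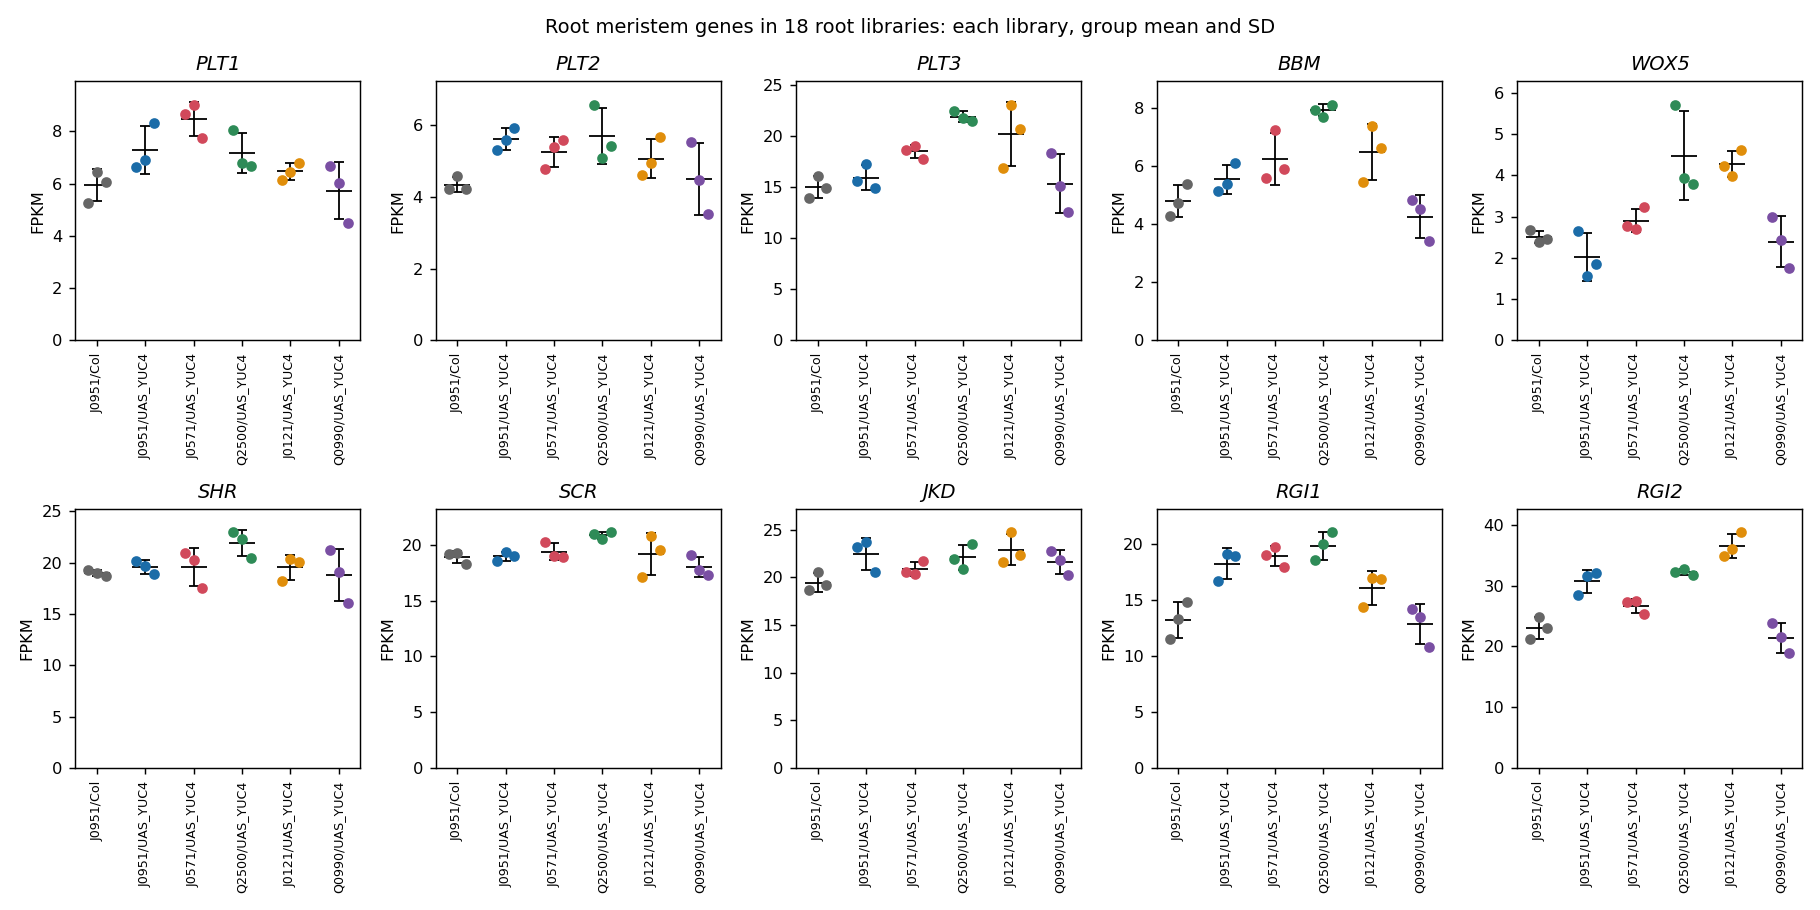
FPKM (vertical axis, from 0) of the 10 root meristem genes in the 3 libraries of each genotype (horizontal axis); points are libraries, with the group mean as a horizontal mark and the SD as an error bar. RGI2 lies between 34.82 and 38.74 FPKM in J0121/UAS_YUC4 and between 21.27 and 24.85 FPKM in J0951/Col, while SCR stays between 17.16 and 21.12 FPKM in all 18 libraries.

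**Figure D2:**
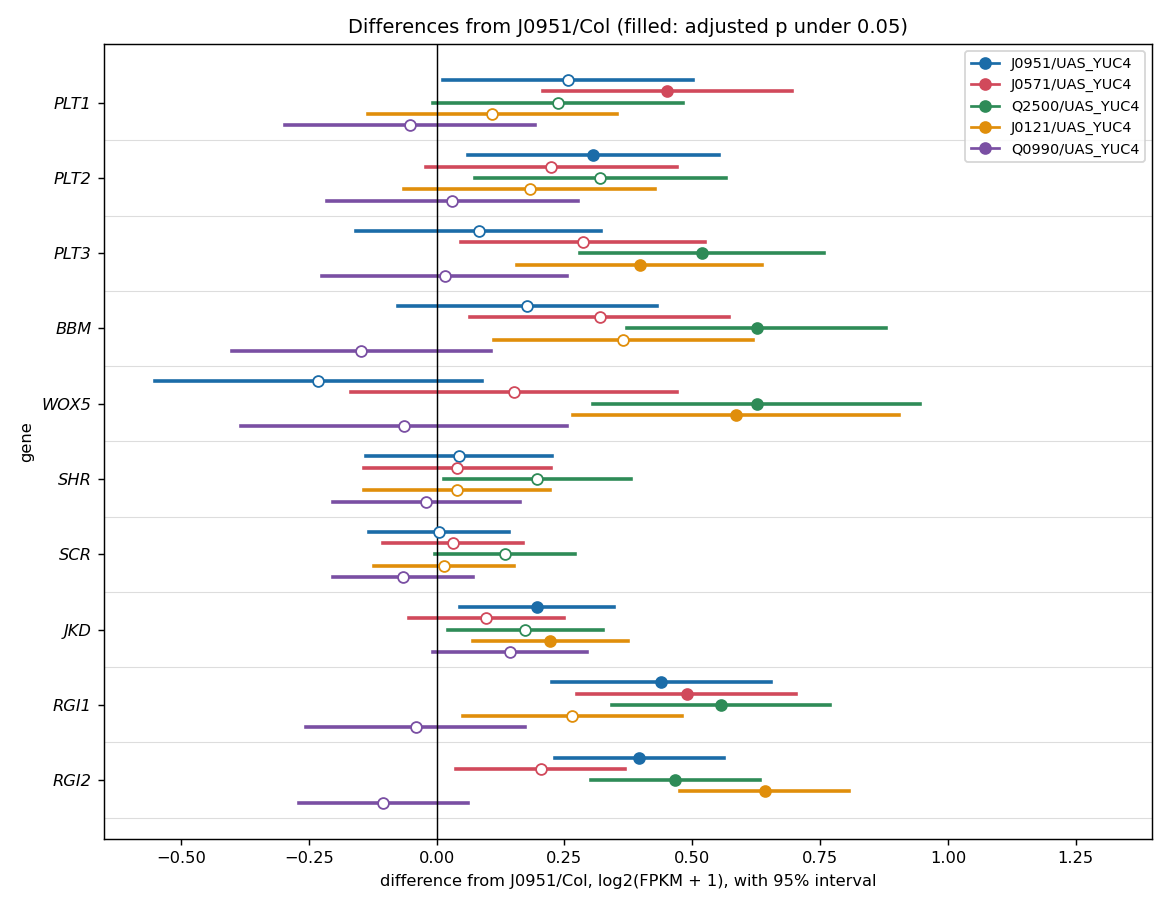
Difference of each UAS_YUC4 line from J0951/Col (horizontal axis, log2(FPKM + 1), limma estimate as a point, 95% interval as a line) for the 10 genes (vertical axis); filled points have an adjusted p under 0.05. The filled points number 4, 2, 5, 4 and 0 in J0951/UAS_YUC4 and J0571/UAS_YUC4, then Q2500/UAS_YUC4 and J0121/UAS_YUC4, and last in Q0990/UAS_YUC4, and all of them lie to the right of 0.

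The PLT genes were called higher in 5 of their 20 comparisons: PLT1 in J0571/UAS_YUC4, PLT2 in J0951/UAS_YUC4, PLT3 in Q2500/UAS_YUC4 and J0121/UAS_YUC4, and BBM in Q2500/UAS_YUC4. Of all tested genes, 19.8% were called higher in J0571/UAS_YUC4, 23.8% in J0951/UAS_YUC4, 6.88% in Q2500/UAS_YUC4 and 8.71% in J0121/UAS_YUC4. PLT1 and PLT2 were not called between any 2 of these 4 lines (limma, lowest adjusted p = 0.061 for PLT1 between J0571/UAS_YUC4 and J0121/UAS_YUC4 and 0.39 for PLT2 between J0951/UAS_YUC4 and J0121/UAS_YUC4), so their calls against the control do not show that the lines differ. PLT1, which with PLT2 is needed for the stem cell niche, was at 5.27, 6.46 and 6.07 FPKM in J0951/Col and at 8.65, 9.02 and 7.74 FPKM in J0571/UAS_YUC4. All J0571/UAS_YUC4 libraries were above the control. The difference was 0.45 with a standard error (SE) of 0.12 and an adjusted p of 0.0089 in limma. PLT1 was 6.64, 6.91 and 8.33 FPKM in J0951/UAS_YUC4 and 8.06, 6.79 and 6.68 FPKM in Q2500/UAS_YUC4. Both groups were above the control in every library, but their differences of 0.26 and 0.24 were not called (adjusted p = 0.086 and adjusted p = 0.19). PLT1 ran from 6.15 to 6.80 FPKM in J0121/UAS_YUC4 and from 4.51 to 6.66 FPKM in Q0990/UAS_YUC4, and both ranges overlapped the control.

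PLT2, which acts redundantly with PLT1, was at 4.21, 4.57 and 4.21 FPKM in J0951/Col and at 5.30, 5.57 and 5.91 FPKM in J0951/UAS_YUC4. The groups did not overlap, and the difference of 0.31 ± 0.12 (SE) was called with an adjusted p of 0.044. The call was lost in 9 of 15 alternative settings, which included each of the 6 settings with 1 library left out (adjusted p from 0.057 to 0.13). PLT2 was 6.56, 5.08 and 5.40 FPKM in Q2500/UAS_YUC4, where a difference of 0.32 missed the threshold (adjusted p = 0.082). It was 4.76 to 5.57 FPKM in J0571/UAS_YUC4 and 4.60 to 5.65 FPKM in J0121/UAS_YUC4, each above every control library and not called. In Q0990/UAS_YUC4 it spread from 3.53 to 5.53 FPKM around the control.

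PLT3 had the highest FPKM of the 4 PLT genes. It was at 13.94, 16.12 and 14.94 FPKM in J0951/Col, at 22.46, 21.77 and 21.48 FPKM in Q2500/UAS_YUC4 and at 16.85, 23.07 and 20.66 FPKM in J0121/UAS_YUC4. The 3 libraries of Q2500/UAS_YUC4 lay close together and far above the control, while those of J0121/UAS_YUC4 were above it but scattered. The difference was 0.52 ± 0.11 (SE) in Q2500/UAS_YUC4 (adjusted p = 0.0092) and 0.40 ± 0.11 (SE) in J0121/UAS_YUC4 (adjusted p = 0.030). Without replicate 3 of Q2500/UAS_YUC4 the first was 0.53 (adjusted p = 0.011). The second was lost in 7 of 16 alternative settings, among them those without replicate 2 of J0121/UAS_YUC4 (0.30, adjusted p = 0.13), without replicate 3 of that group (adjusted p = 0.089), without replicate 1 of J0951/Col (adjusted p = 0.12) or without its replicate 3 (adjusted p = 0.068). In J0571/UAS_YUC4 PLT3 was 18.64, 19.07 and 17.75 FPKM, above the control in every library, and 0.29 higher with an adjusted p of 0.069. It was 14.94 to 17.28 FPKM in J0951/UAS_YUC4 and 12.54 to 18.31 FPKM in Q0990/UAS_YUC4, within or around the control range.

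BBM, the PLT family member also known for inducing embryos when overexpressed, was at 4.29, 4.71 and 5.38 FPKM in J0951/Col and at 7.94, 7.70 and 8.11 FPKM in Q2500/UAS_YUC4. These groups were the most clearly separated among the BBM comparisons with the control, with a difference of 0.63 ± 0.12 (SE) and an adjusted p of 0.0041, or 0.61 and 0.0075 without replicate 3 of Q2500/UAS_YUC4. BBM was 5.59, 7.25 and 5.88 FPKM in J0571/UAS_YUC4 and 5.45, 7.38 and 6.61 FPKM in J0121/UAS_YUC4. All 6 of these libraries were above the control, but differences of 0.32 and 0.36 missed the threshold (adjusted p = 0.057 and adjusted p = 0.054). BBM became called in J0571/UAS_YUC4 without replicate 3 of J0951/Col (adjusted p = 0.044) and in J0121/UAS_YUC4 without replicate 1 of that group (adjusted p = 0.038). BBM ran from 5.14 to 6.11 FPKM in J0951/UAS_YUC4 and from 3.41 to 4.83 FPKM in Q0990/UAS_YUC4, both overlapping the control.

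Of 4 further AIL/PLT relatives, AIL1 was listed at 0 in all 18 libraries and 3 were tested. The rule that named pathway genes, a call in J0951/UAS_YUC4 against J0951/Col, named none of them, and at an unadjusted p under 0.05 there were 0 in that comparison. The relatives called elsewhere were picked out after their values were seen. AIL5, also known as PLT5 and acting in lateral root formation, was at 1.12, 0.97 and 1.22 FPKM in J0951/Col and rose by 0.52 in Q2500/UAS_YUC4 (adjusted p = 0.0058) and by 0.61 in J0121/UAS_YUC4 (adjusted p = 0.0019). AIL7, also known as PLT7, rose by 0.51 in J0121/UAS_YUC4 from 0.75 to 0.97 FPKM in the control to 1.56 to 1.72 FPKM (adjusted p = 0.026). All control values of AIL7 were under the 1 FPKM of the filter, and the J0121/UAS_YUC4 libraries alone sufficed to pass it. The filter therefore favoured AIL7 being high in that line, and its call is given as a description. ANT, a relative known for organ size in the shoot, fell by 0.79 there, from 4.11 to 4.65 FPKM in the control to 1.96 to 2.28 FPKM (adjusted p = 0.023).

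WOX5 was the member with the lowest FPKM, and its levels put J0951/UAS_YUC4 and Q2500/UAS_YUC4 at opposite ends. It was at 2.67, 2.39 and 2.46 FPKM in J0951/Col, at 5.71, 3.93 and 3.78 FPKM in Q2500/UAS_YUC4 and at 4.23, 3.97 and 4.60 FPKM in J0121/UAS_YUC4. Every library of these lines exceeded every control library. The difference was 0.63 ± 0.15 (SE) in Q2500/UAS_YUC4 (adjusted p = 0.016) and 0.59 ± 0.15 (SE) in J0121/UAS_YUC4 (adjusted p = 0.019). Replicate 1 of Q2500/UAS_YUC4 carried part of the former, which was 0.47 with an adjusted p of 0.081 without that library and 0.71 with an adjusted p of 0.0086 without replicate 3. The latter was no longer called without replicate 2 or 3 of J0951/Col or without replicate 1 or 3 of J0121/UAS_YUC4 (adjusted p from 0.051 to 0.067). WOX5 was 2.76, 2.71 and 3.22 FPKM in J0571/UAS_YUC4, just above the control range and not called (0.15, adjusted p = 0.48). In J0951/UAS_YUC4 it was 2.66, 1.56 and 1.84 FPKM, with 2 libraries below the control and 1 within it (-0.23, adjusted p = 0.23), and in Q0990/UAS_YUC4 it was 2.99, 2.44 and 1.75 FPKM.

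WOX5 was also higher beside PLT1 in these lines, a ratio picked after the levels were seen and given without a test. The FPKM of WOX5 divided by that of PLT1 was 0.708, 0.579 and 0.566 in Q2500/UAS_YUC4 and 0.688, 0.616 and 0.676 in J0121/UAS_YUC4. It ran from 0.221 to 0.507 in the 12 libraries of the other 4 genotypes, so no library of those reached the lowest of these 6. J0951/UAS_YUC4 held the lowest 2 libraries, replicates 2 and 3.

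Another gene known from the quiescent centre, the MADS-box gene AGL42, was looked at beside WOX5 and named after its values were seen. It was at 5.55, 6.24 and 7.88 FPKM in J0951/Col and at 4.65, 5.00 and 4.19 FPKM in Q2500/UAS_YUC4, all below the control. It fell by 0.42 there (adjusted p = 0.026), by 0.56 in J0571/UAS_YUC4 (adjusted p = 0.0017) and by 0.32 in J0951/UAS_YUC4 (adjusted p = 0.034). Thus AGL42 was lower in the same line in which WOX5 was higher. In J0121/UAS_YUC4, where WOX5 was also higher, AGL42 was 7.58 to 7.85 FPKM and not called.

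SHR and SCR were close to level across the genotypes. SHR was at 19.25, 18.95 and 18.68 FPKM in J0951/Col, and the lowest and highest of the 15 other libraries, replicate 3 of Q0990/UAS_YUC4 and replicate 1 of Q2500/UAS_YUC4, had 16.09 and 22.95 FPKM. In Q2500/UAS_YUC4 SHR was 22.95, 22.32 and 20.44 FPKM. These 3 libraries were above the control, by 0.20 ± 0.09 (SE), with an adjusted p of 0.14. In the other 4 lines the SHR difference was between -0.02 and 0.04 and the groups overlapped. SCR was at 19.18, 19.30 and 18.31 FPKM in J0951/Col and at 20.94, 20.51 and 21.12 FPKM in Q2500/UAS_YUC4, again higher in every library without a call (0.13 ± 0.06 (SE), adjusted p = 0.19). Its other differences were between -0.07 and 0.03. Over SHR, SCR and JKD in all 5 lines, the 95% intervals reached from -0.20 to 0.38 on the log2 scale, which is 0.869 to 1.30 as a ratio of FPKM + 1, so larger changes in either direction were outside every interval.

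JKD was higher in 2 lines by small amounts. It was at 18.68, 20.51 and 19.16 FPKM in J0951/Col, at 23.15, 23.68 and 20.51 FPKM in J0951/UAS_YUC4 and at 21.61, 24.71 and 22.31 FPKM in J0121/UAS_YUC4. Replicate 3 of J0951/UAS_YUC4 equalled the highest control library, while J0121/UAS_YUC4 was above the control throughout. The differences were 0.20 ± 0.07 (SE, adjusted p = 0.038) and 0.22 ± 0.07 (SE, adjusted p = 0.049). The call in J0951/UAS_YUC4 was lost in 7 of 15 alternative settings, including median-of-ratios scaling (0.14, adjusted p = 0.11) and the removal of replicate 1 (adjusted p = 0.11) or 2 (adjusted p = 0.14) of that group or of replicate 1 (adjusted p = 0.11) or 3 (adjusted p = 0.097) of J0951/Col. The call in J0121/UAS_YUC4 was lost in 13 of 16, among them the removal of any 1 library (adjusted p from 0.055 to 0.18). JKD was 20.60, 20.32 and 21.69 FPKM in J0571/UAS_YUC4, 21.88, 20.89 and 23.45 FPKM in Q2500/UAS_YUC4 and 22.77, 21.76 and 20.24 FPKM in Q0990/UAS_YUC4.

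The other genes listed for the SHR/SCR pathway numbered 9, and all were tested. In J0951/UAS_YUC4 1 rose and 2 fell, in J0571/UAS_YUC4 2 rose, in Q2500/UAS_YUC4 1 fell, and in J0121/UAS_YUC4 3 rose and 1 fell. In Q0990/UAS_YUC4 limma called 0, with 1 higher and 1 lower at an unadjusted p under 0.05. No share of all genes is given at that unadjusted threshold. Of all tested genes, 23.8%, 19.8%, 6.88%, 8.71% and 0.187% were called higher in that order of lines. Called lower were 16.7%, 7.63%, 4.43%, 4.57% and 0.27%. SCL3, a GRAS protein of the endodermis that acts in gibberellin signalling, was at 10.30, 10.67 and 9.94 FPKM in J0951/Col and at 13.39, 13.79 and 14.78 FPKM in J0951/UAS_YUC4. It rose by 0.41 there (adjusted p = 0.0020), by 0.48 in J0571/UAS_YUC4 (adjusted p = 0.00091) and by 0.38 in J0121/UAS_YUC4 (adjusted p = 0.012). CYCD6;1, the cyclin that SHR and SCR switch on for the division of the cortex and endodermis initial, was at 1.05, 1.33 and 1.24 FPKM in J0951/Col and 0.60, 0.75 and 0.57 FPKM in J0951/UAS_YUC4. It fell by 0.43 (adjusted p = 0.0061), in a line in which SHR and SCR differed from the control by 0.04 and 0.00. TCP20, a TCP transcription factor, fell by 0.25 in J0951/UAS_YUC4 (adjusted p = 0.0068) and by 0.30 in Q2500/UAS_YUC4 (adjusted p = 0.0091), from 7.73 to 8.51 FPKM in the control to 6.60 to 6.91 FPKM and 6.37 to 6.63 FPKM. The genes called only outside J0951/UAS_YUC4 were picked out after their values were seen. The zinc finger gene NUC rose by 0.22 in J0571/UAS_YUC4 (adjusted p = 0.017). In J0121/UAS_YUC4 the zinc finger gene BIB, a relative of JKD, rose by 0.40 (adjusted p = 0.037), MYB36, a regulator of endodermal differentiation, rose by 0.34 (adjusted p = 0.0096), and MGP, a zinc finger gene that SHR and SCR activate, fell by 0.47 (adjusted p = 0.0059).

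The receptor genes RGI1 and RGI2 were called higher in 6 of their 10 comparisons, and all 6 calls held in every alternative setting tried. Each was called higher in 3 lines, and 3.19% of all tested genes were called higher in exactly 3 lines. RGI1 was at 11.54, 13.35 and 14.79 FPKM in J0951/Col. It was at 16.67, 19.12 and 18.92 FPKM in J0951/UAS_YUC4, at 18.99, 19.74 and 17.95 FPKM in J0571/UAS_YUC4 and at 18.54, 19.97 and 21.04 FPKM in Q2500/UAS_YUC4. All 9 of these libraries were above the control. RGI1 rose by 0.44 ± 0.10 (SE) in J0951/UAS_YUC4 (adjusted p = 0.0028), by 0.49 ± 0.10 (SE) in J0571/UAS_YUC4 (adjusted p = 0.0022) and by 0.56 ± 0.10 (SE) in Q2500/UAS_YUC4 (adjusted p = 0.0029). In J0121/UAS_YUC4 it was 14.35, 16.94 and 16.92 FPKM, overlapping the control in replicate 1, and 0.27 higher with an adjusted p of 0.090. In Q0990/UAS_YUC4 it was 14.19, 13.50 and 10.85 FPKM.

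RGI2 had the highest FPKM of the 10 genes in every group except Q0990/UAS_YUC4, where JKD was about level with it. It was at 21.27, 24.85 and 23.09 FPKM in J0951/Col and at 34.82, 36.01 and 38.74 FPKM in J0121/UAS_YUC4. It was at 28.44, 31.49 and 32.06 FPKM in J0951/UAS_YUC4 and at 32.25, 32.73 and 31.66 FPKM in Q2500/UAS_YUC4. These 3 lines did not overlap the control, and J0121/UAS_YUC4 was above all other libraries. RGI2 rose by 0.64 ± 0.08 (SE) in J0121/UAS_YUC4 (adjusted p = 0.00016), by 0.40 ± 0.08 (SE) in J0951/UAS_YUC4 (adjusted p = 0.00094) and by 0.47 ± 0.08 (SE) in Q2500/UAS_YUC4 (adjusted p = 0.0016). It was 27.22, 27.42 and 25.40 FPKM in J0571/UAS_YUC4, above the control in every library, and 0.20 higher with an adjusted p of 0.062, which became 0.043 without replicate 2 of J0951/Col. It was 23.86, 21.48 and 18.95 FPKM in Q0990/UAS_YUC4.

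The balance between the receptors also differed, a comparison picked after the levels were seen and given without a test. The FPKM of RGI2 divided by that of RGI1 was 2.43, 2.13 and 2.29 in J0121/UAS_YUC4 and 1.43, 1.39 and 1.42 in J0571/UAS_YUC4. In the 12 libraries of the other 4 genotypes it ran from 1.50 to 1.86. The first group was thus above and the second below all other libraries. Because both genes come from the same library, this ratio does not depend on how libraries are scaled to each other.

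The RGF peptide pathway list held 14 further entries, of which 13 were in the table and 12 were tested. RGF9 reached at most 0.50 FPKM and was not tested. By line, 3 rose and 1 fell in J0951/UAS_YUC4, 2 rose and 1 fell in J0571/UAS_YUC4, and 3 rose in Q2500/UAS_YUC4 and in J0121/UAS_YUC4. In Q0990/UAS_YUC4 limma called 0, with 0 higher and 2 lower at an unadjusted p under 0.05. No share of all genes is given at that unadjusted threshold. The median difference of the 12 genes was 0.08, 0.27, 0.24, 0.18 and -0.04 in that order of lines. In the same order, 23.8%, 19.8%, 6.88%, 8.71% and 0.187% of all tested genes were called higher, so the count in J0951/UAS_YUC4 is near the background. Called lower were 16.7%, 7.63%, 4.43%, 4.57% and 0.27%. RGI3, a further RGF receptor kinase, was at 18.64, 20.17 and 19.51 FPKM in J0951/Col and at 24.60, 27.69 and 29.69 FPKM in J0951/UAS_YUC4. It rose by 0.47 there (adjusted p = 3.6e-05), by 0.36 in J0571/UAS_YUC4 (adjusted p = 0.00060), by 0.24 in Q2500/UAS_YUC4 (adjusted p = 0.024) and by 0.34 in J0121/UAS_YUC4 (adjusted p = 0.0034).

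RGI4, a receptor of the same family, was at 24.29, 28.97 and 28.88 FPKM in J0951/Col and at 31.83, 36.49 and 38.79 FPKM in J0951/UAS_YUC4. It rose by 0.37 in that line (adjusted p = 0.0016), and in the other 4 lines it was not called. RITF1, the transcription factor gene that RGF1 signalling induces, was at 16.71, 16.83 and 15.01 FPKM in J0951/Col and at 20.86, 18.53 and 23.55 FPKM in J0951/UAS_YUC4, a rise of 0.35 (adjusted p = 0.011). The peptide gene RGF7 went the other way. It was at 8.88, 12.79 and 8.70 FPKM in J0951/Col and at 6.04, 5.24 and 3.46 FPKM in J0951/UAS_YUC4, below every control library. It fell by 0.92 there (adjusted p = 0.00097) and by 0.53 in J0571/UAS_YUC4 (adjusted p = 0.040). The 3 entries called only outside J0951/UAS_YUC4 were picked out after their values were seen. The receptor gene RGI5 rose by 0.30 in Q2500/UAS_YUC4 (adjusted p = 0.044) and 0.47 in J0121/UAS_YUC4 (adjusted p = 0.0044). The peptide gene RGF8 rose by 0.50 (adjusted p = 0.020) and 0.57 (adjusted p = 0.0092) in the same lines, and TPST, the enzyme that sulfates RGF peptides, rose by 0.30 in J0571/UAS_YUC4 (adjusted p = 0.0029).

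Whether the genotypes differed among themselves was asked by an F test over the 6 groups and by comparing the lines in pairs. The F test called PLT1 (adjusted p = 0.010), PLT3 (adjusted p = 0.0026), BBM (adjusted p = 0.00053), WOX5 (adjusted p = 0.00045), RGI1 (adjusted p = 0.00023) and RGI2 (adjusted p = 6.8e-06). It did not call PLT2 (adjusted p = 0.078), JKD (adjusted p = 0.094), SCR (adjusted p = 0.16) or SHR (adjusted p = 0.26). These 6 of 10 stand beside 65.4% of all tested genes, so that count is near the background. The highest group mean was in J0571/UAS_YUC4 for PLT1, in J0121/UAS_YUC4 for JKD and RGI2, and in Q2500/UAS_YUC4 for PLT2, PLT3, BBM, WOX5, SHR, SCR and RGI1. The lowest was in Q0990/UAS_YUC4 for PLT1, BBM, SHR, SCR, RGI1 and RGI2, in J0951/Col for PLT2, PLT3 and JKD, and in J0951/UAS_YUC4 for WOX5. When the groups were ordered by mean FPKM, limma called 0 of the 50 pairs of neighbours, and 6 had an unadjusted p under 0.05. Neighbours were picked by these same means and so hold the smaller differences. The counts therefore do not show whether the genotypes differ, and no share of all genes is given beside them.

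In pairs of lines 26 of 100 comparisons were called, of which 17 involved the libraries labelled Q0990/UAS_YUC4. Q2500/UAS_YUC4 was above Q0990/UAS_YUC4 in 6 of 10 genes (PLT3, BBM, WOX5, SCR, RGI1, RGI2), where 16.1% of all genes were called higher. J0951/UAS_YUC4 and J0571/UAS_YUC4 were each above Q0990/UAS_YUC4 in PLT1, BBM, RGI1 and RGI2, 4 of 10, against 28.9% and 18.4% of all genes. J0121/UAS_YUC4 was above it in 3 of 10 (BBM, WOX5, RGI2), against 1.3%. The BBM difference between Q2500/UAS_YUC4 and Q0990/UAS_YUC4 was 0.77 ± 0.12 (SE, adjusted p = 0.00062), and it was 0.65 (adjusted p = 0.0052) without replicate 3 of Q0990/UAS_YUC4, the library whose YUC4 was in the control range. Without that library 7 of the 17 calls were lost: PLT1 and BBM against J0951/UAS_YUC4, BBM and RGI2 against J0571/UAS_YUC4, SCR against Q2500/UAS_YUC4, and BBM and WOX5 against J0121/UAS_YUC4. SCR against Q2500/UAS_YUC4 was also lost without replicate 3 of Q2500/UAS_YUC4 (adjusted p = 0.053), while SHR in that pair, 0.22 higher with an adjusted p of 0.072, was then called (0.26, adjusted p = 0.039).

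Among the 4 lines with high YUC4, 9 comparisons were called. J0951/UAS_YUC4 was below Q2500/UAS_YUC4 in 3 of 10 genes, PLT3 (-0.44, adjusted p = 0.0095), BBM (-0.45, adjusted p = 0.011) and WOX5 (-0.86, adjusted p = 0.00061), against 13.2% of all genes called lower. It was below J0121/UAS_YUC4 in 3 of 10, PLT3 (-0.31, adjusted p = 0.030), WOX5 (-0.82, adjusted p = 0.00037) and RGI2 (-0.25, adjusted p = 0.016), against 25.8%, so that count is near the background. Of these 6 calls, PLT3 against J0121/UAS_YUC4 was lost without replicate 2 (adjusted p = 0.15) or 3 (adjusted p = 0.082) of J0121/UAS_YUC4 or without replicate 1 (adjusted p = 0.071) or 3 (adjusted p = 0.10) of J0951/UAS_YUC4, and RGI2 without replicate 1 of J0951/UAS_YUC4 (adjusted p = 0.077) or replicate 3 of J0121/UAS_YUC4 (adjusted p = 0.075). J0571/UAS_YUC4 was below Q2500/UAS_YUC4 in 2 of 10, WOX5 (-0.48, adjusted p = 0.044) and RGI2 (-0.26, adjusted p = 0.033), against 5.19% of all genes, and below J0121/UAS_YUC4 in 1 of 10, RGI2 (-0.44, adjusted p = 0.0012), against 5.22%. WOX5 and RGI2 lost their calls against Q2500/UAS_YUC4 in 5 of the 6 settings with 1 library left out, the exception being replicate 3 of Q2500/UAS_YUC4. Between J0951/UAS_YUC4 and J0571/UAS_YUC4, and between Q2500/UAS_YUC4 and J0121/UAS_YUC4, limma called 0 of 10, beside 35.5% and 11.7% of all genes called in either direction. At an unadjusted p under 0.05 the counts were 2 and 3, and no share of all genes at that threshold is given beside them. Some comparisons in these pairs became called in other settings. RGI2 was higher in J0951/UAS_YUC4 than in J0571/UAS_YUC4 by 0.19 (adjusted p = 0.064), and its adjusted p was 0.011 after median-of-ratios scaling, 0.022 after quantile normalization, 0.041 with the 2 groups fitted alone and 0.040 without replicate 1 of J0951/UAS_YUC4. WOX5 was lower in J0951/UAS_YUC4 than in J0571/UAS_YUC4 by 0.38 (adjusted p = 0.059), and its adjusted p was 0.035 with the replicate block, 0.016 without replicate 1 of J0951/UAS_YUC4 and 0.0496 with a pseudocount of 0.1. PLT3, lower by 0.20 in the same pair, was called with the 2 groups fitted alone (adjusted p = 0.045). RGI1 was 0.29 higher in Q2500/UAS_YUC4 than in J0121/UAS_YUC4 (adjusted p = 0.067), with an adjusted p of 0.043 after median-of-ratios scaling and 0.035 after quantile normalization.

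Inside the groups the 10 genes were least even in Q0990/UAS_YUC4. The coefficient of variation of FPKM over 3 libraries had a median over the 10 genes of 15.6% there, and of 5.91% to 8.34% in the other 5 groups. Replicate 1 was the highest and replicate 3 the lowest of the 3 Q0990/UAS_YUC4 libraries for 10 of 10 genes, and the same arrangement was found for 26.2% of all tested genes. It was found for 8 of 12 genes of the RGF peptide pathway, 2 of 9 of the SHR/SCR pathway, 1 of 3 AIL/PLT relatives, 1 of 6 distal stem cell and root cap genes and 1 of 6 meristem size regulators. Among the markers it was found for 1 of 11 of dividing cells, 0 of 6 of the endodermis, 0 of 5 of root hairs and 0 of 7 of the shoot. In J0121/UAS_YUC4 replicate 1 was lowest for 9 of 10 genes, beside 34.9% of all genes.

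**Figure D3:**
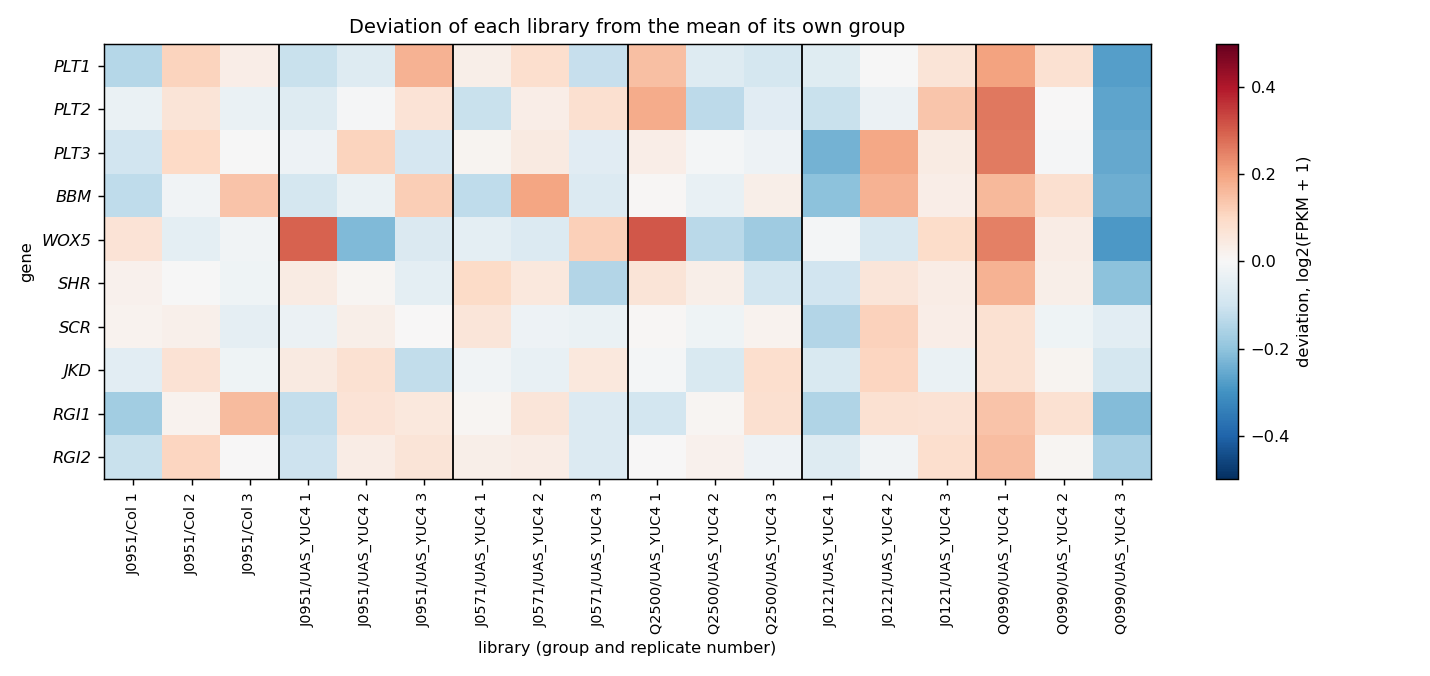
Deviation of each of the 18 libraries (horizontal axis, grouped by genotype) from the mean of its own group on the log2(FPKM + 1) scale (colour) for the 10 genes (vertical axis). Replicate 3 of Q0990/UAS_YUC4 is below its group mean in 10 of 10 genes, by 0.20 on average, and replicate 1 is above it in 10 of 10.

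Over the 18 libraries all 45 pairs of the 10 genes were positively correlated. The Pearson r of log2(FPKM + 1) ran from 0.139 for PLT1 with JKD to 0.884 for PLT3 with BBM, with a median of 0.581. These libraries share groups and a common scaling, so the values are a description. After the group means were subtracted the median was 0.530 and 44 pairs were positive. No values for other gene pairs are given to set beside these. Without the 3 libraries of Q0990/UAS_YUC4 the median over the remaining 15 libraries was 0.281, with 36 positive pairs and a range from -0.59 to 0.788.

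**Figure D4:**
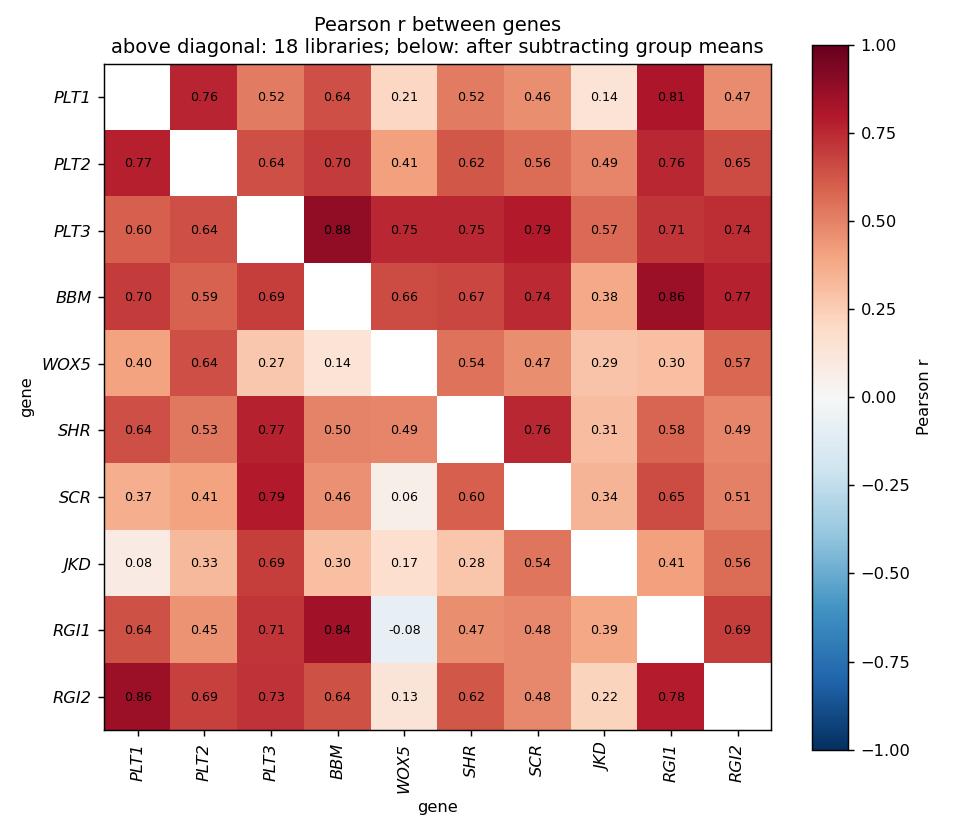
Pearson r between the 10 genes on the log2(FPKM + 1) scale, over 18 libraries above the diagonal and after subtraction of group means below it (both axes list genes, colour and numbers give r). PLT3 with BBM is highest above the diagonal at 0.884, and PLT1 with RGI2 is highest below it at 0.857.

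For each gene the 2 loci with the most similar pattern over the 18 libraries were found among 14831 loci with a group mean of at least 5 FPKM. They were picked by r alone as the highest of many, so high values were favoured. The libraries share groups, and the r values are a description without a test. For PLT3 these were MP (AT1G19850), the auxin response factor MONOPTEROS, with r = 0.900, and ECT1 with r = 0.891. For RGI2 they were GH3.1, an auxin-conjugating enzyme family member, with r = 0.929, and AT5G04600 with r = 0.893. For WOX5 they were SRS5 (r = 0.901) and TCX2 (r = 0.868), for PLT1 TSO1 (r = 0.899) and AT1G62500 (r = 0.897), for PLT2 AT4G30680 (r = 0.905) and AT3G13580 (r = 0.896), and for BBM ALDH3F1 (r = 0.904) and CER3 (r = 0.902). For RGI1 they were AT5G26850 (r = 0.922) and AT1G21740 (r = 0.919). The nearest loci were less similar for SHR, with AT3G20820 (r = 0.827) and TAF12 (r = 0.825), for SCR, with AT5G48830 (r = 0.836) and AT5G37010 (r = 0.819), and for JKD, with AT2G32415 (r = 0.786) and HL (r = 0.782).

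Markers of cell types and of dividing cells moved in the same comparisons, and their part in the differences of the 10 genes was not tested. Their counts, here and in the lists that follow, stand beside these shares of all tested genes. Called higher were 23.8% in J0951/UAS_YUC4, 19.8% in J0571/UAS_YUC4, 6.88% in Q2500/UAS_YUC4, 8.71% in J0121/UAS_YUC4 and 0.187% in Q0990/UAS_YUC4. Called lower were 16.7%, 7.63%, 4.43%, 4.57% and 0.27% in that order of lines. For counts at an unadjusted p under 0.05 no share of all genes is given. Of 11 dividing cell markers, mitotic cyclins, B-type cyclin-dependent kinases and cytokinesis genes, 4 rose in Q2500/UAS_YUC4, and their summed level was 160.5 to 169.92 FPKM there and 134.35 to 150.49 FPKM in J0951/Col. In J0951/UAS_YUC4 4 fell, in J0571/UAS_YUC4 3 fell and in J0121/UAS_YUC4 1 fell, with sums of 127.65 to 134.65, 122.86 to 137.58 and 133.76 to 142.05 FPKM. In Q0990/UAS_YUC4 limma called 0, with 4 lower at an unadjusted p under 0.05 and a sum of 124.74 to 130.75 FPKM. The summed level of the 10 root meristem genes was 120.3 to 131.21 FPKM in J0951/Col, 142.31 to 150.05 FPKM in J0951/UAS_YUC4 and 161.69 to 167.29 FPKM in Q2500/UAS_YUC4. It was 141.61 to 150.2 FPKM in J0571/UAS_YUC4, 143.4 to 164.62 FPKM in J0121/UAS_YUC4 and 109.2 to 139.39 FPKM in Q0990/UAS_YUC4.

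Of 7 genes of distal stem cells and root cap, CLE40 was listed at 0 in 17 libraries and 6 were tested. In all, 5 rose in J0951/UAS_YUC4 and 4 in J0571/UAS_YUC4, with summed levels of 49.75 to 56.05 and 55.78 to 61.01 FPKM against 39.53 to 43.17 FPKM in J0951/Col. In Q2500/UAS_YUC4 2 rose and 1 fell (39.26 to 41.54 FPKM), in J0121/UAS_YUC4 1 rose and 2 fell (38.49 to 44.28 FPKM), and in Q0990/UAS_YUC4 limma called 0, with 1 higher and 3 lower at an unadjusted p under 0.05 (35.67 to 41.08 FPKM). The 6 markers of the differentiated endodermis, CASP genes and ESB1 of the Casparian strip, all fell in J0951/UAS_YUC4 and J0571/UAS_YUC4, and 3 fell in Q2500/UAS_YUC4. Their sums were 434.57 to 547.38 FPKM in J0951/Col and 261.52 to 292.68, 220.85 to 250.67 and 326.28 to 385.34 FPKM in those lines. In J0121/UAS_YUC4 and Q0990/UAS_YUC4 the sums were 392.04 to 429.34 and 372.46 to 486.99 FPKM, with 0 called by limma and 1 and 0 lower at an unadjusted p under 0.05.

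Root hair markers numbered 5, of which 5 rose in J0951/UAS_YUC4 and J0571/UAS_YUC4, 1 in Q2500/UAS_YUC4 and 2 in J0121/UAS_YUC4. Their sums were 275.98 to 346.3 FPKM in J0951/Col and 487.59 to 533.57, 475.66 to 649.97, 360.66 to 394.95 and 395.5 to 546.98 FPKM in those lines, and 250.56 to 478.09 FPKM in Q0990/UAS_YUC4. Photosynthesis markers of the shoot rose in 6, 6 and 4 of 7 cases in J0951/UAS_YUC4, J0571/UAS_YUC4 and Q2500/UAS_YUC4, and 1 fell in J0121/UAS_YUC4. They summed to 163.02 to 187.85 FPKM in J0951/Col, 254.06 to 366.98, 271.75 to 313.23 and 176.57 to 283.83 FPKM in those 3 lines, 111.36 to 163.87 FPKM in J0121/UAS_YUC4 and 177.74 to 207.23 FPKM in Q0990/UAS_YUC4. In Q0990/UAS_YUC4 limma called 0 of 5 root hair and 0 of 7 photosynthesis markers, with 2 and 0 at an unadjusted p under 0.05. Of 6 tested regulators of meristem size, 1 rose and 1 fell in J0951/UAS_YUC4, 3 rose and 2 fell in J0571/UAS_YUC4, 1 fell in Q2500/UAS_YUC4, and limma called 0 in J0121/UAS_YUC4 and Q0990/UAS_YUC4, each with 1 lower at an unadjusted p under 0.05.

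**Figure D5:**
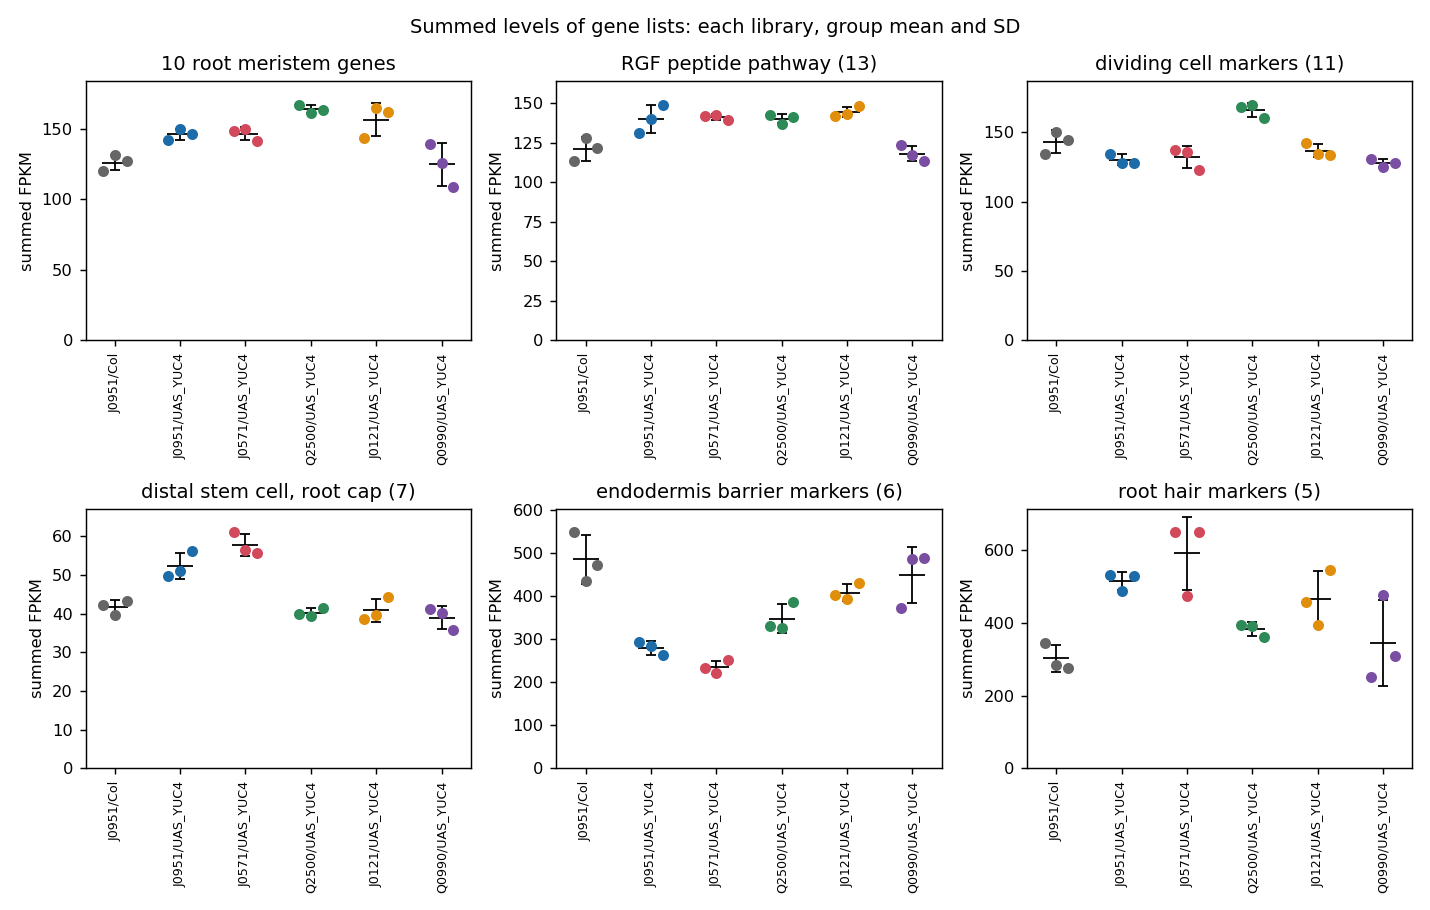
Summed FPKM (vertical axis, from 0) of the 10 root meristem genes and of 5 gene lists in each of the 18 libraries, by genotype (horizontal axis); points are libraries, with the group mean and SD. Dividing cell markers are highest in Q2500/UAS_YUC4 at 160.5 to 169.92 FPKM, and endodermis markers are lowest in J0571/UAS_YUC4 at 220.85 to 250.67 FPKM.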

How the data were processed

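RNA sequencing of roots gave 1 table for 18 libraries. The authors deposited FPKM values per locus; neither the labels nor the table header names an aligner, counter, genome build or annotation. Low FPKM values step by what 1 fragment is worth, and these steps were read from at least 12 genes per library. Only genes whose values were near whole multiples of 1 common step in all libraries were kept. The resulting relative depths of 0.963 to 1.00 were thus held near each other by the selection and do not show equal depth. Total depth is unknown, so no counting interval is given. All 18 sample columns were used and 0 per-sample columns were set aside.

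FPKM values were transformed here to log2(FPKM + 1), after 19260 of 25202 loci passed 1 FPKM in 3 libraries, and fitted with limma 3.58.1 in R 4.3.3, with 1 mean per group, a mean-variance trend and 12 residual degrees of freedom. Comparisons of each line with J0951/Col, all 10 pairs of lines and an F test over the 6 groups had p-values adjusted by Benjamini-Hochberg over all tested loci, and 0.05 was the threshold. The median SE of a comparison was 0.0994. All tests were two-sided; with 3 against 3 libraries an exact permutation test cannot go below 0.1, so none is given. The fitting code was tested on simulated data.

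The text names all 10 genes, YUC4 as a check, at most 4 genes per pathway list called in J0951/UAS_YUC4 (smallest adjusted p first), and the 2 loci most alike each gene by Pearson r; genes named outside this rule are said to be. The 10 genes and all lists were chosen with earlier results of these data known. Alternatives were other pseudocounts, filters, scalings, models and libraries left out. Figures were drawn with matplotlib 3.10.9 in Python 3.11.15. No sequence or coordinate is given.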

Additional observations from a re-analysis of the deposited data

Results flagged for a closer look

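In 26 cases the difference between 2 UAS_YUC4 lines was itself past the threshold when tested as a limma contrast of those lines, on the log2(FPKM + 1) scale with 3 libraries per line. None of these lines is the control, and each value is the first line minus the second. Of the 26, 13 were lost in 1 or more alternative settings and are named in the section on processing.

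PLT1 was higher than in Q0990/UAS_YUC4 by 0.31 in J0951/UAS_YUC4 and by 0.50 in J0571/UAS_YUC4. PLT3 differed by -0.44 between J0951/UAS_YUC4 and Q2500/UAS_YUC4, by -0.31 between J0951/UAS_YUC4 and J0121/UAS_YUC4, and by 0.50 between Q2500/UAS_YUC4 and Q0990/UAS_YUC4. BBM differed by -0.45 between J0951/UAS_YUC4 and Q2500/UAS_YUC4. Against Q0990/UAS_YUC4, BBM was higher by 0.32 in J0951/UAS_YUC4, 0.47 in J0571/UAS_YUC4, 0.77 in Q2500/UAS_YUC4 and 0.51 in J0121/UAS_YUC4.

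WOX5 differed by -0.86 between J0951/UAS_YUC4 and Q2500/UAS_YUC4, by -0.82 between J0951/UAS_YUC4 and J0121/UAS_YUC4, and by -0.48 between J0571/UAS_YUC4 and Q2500/UAS_YUC4. Against Q0990/UAS_YUC4 it was higher by 0.69 in Q2500/UAS_YUC4 and 0.65 in J0121/UAS_YUC4. SCR was 0.20 higher in Q2500/UAS_YUC4 than in Q0990/UAS_YUC4.

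RGI1 was higher than in Q0990/UAS_YUC4 by 0.48 in J0951/UAS_YUC4, 0.53 in J0571/UAS_YUC4 and 0.60 in Q2500/UAS_YUC4. RGI2 differed by -0.25 between J0951/UAS_YUC4 and J0121/UAS_YUC4, by -0.26 between J0571/UAS_YUC4 and Q2500/UAS_YUC4, and by -0.44 between J0571/UAS_YUC4 and J0121/UAS_YUC4. Against Q0990/UAS_YUC4, RGI2 was higher by 0.50 in J0951/UAS_YUC4, 0.31 in J0571/UAS_YUC4, 0.57 in Q2500/UAS_YUC4 and 0.75 in J0121/UAS_YUC4.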

How the results depend on the processing

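Of the 15 calls against J0951/Col, 9 held under every alternative that could test them: RGI1 and RGI2 in 3 lines each, PLT1 in J0571/UAS_YUC4, and PLT3 and BBM in Q2500/UAS_YUC4. No called value changed sign. Of the 26 calls between lines, 13 held throughout and 13 were lost in 1 or more alternatives. Lost against Q0990/UAS_YUC4 were PLT1 and BBM in J0951/UAS_YUC4, and BBM and RGI2 in J0571/UAS_YUC4. PLT3, WOX5 and SCR in Q2500/UAS_YUC4, and BBM and WOX5 in J0121/UAS_YUC4, were also lost against it. Between the other lines the lost calls were PLT3 and RGI2 in J0951/UAS_YUC4 against J0121/UAS_YUC4. WOX5 and RGI2 in J0571/UAS_YUC4 against Q2500/UAS_YUC4 were lost too. WOX5 could not be tested with a filter of 5 FPKM.

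All tested genes called numbered 88 in Q0990/UAS_YUC4, and 142 with a filter of 5 FPKM, 221 after median-of-ratios scaling, 25 with its 2 groups fitted alone and 17 to 264 with 1 library left out, 17 without replicate 3. In Q2500/UAS_YUC4 they numbered 2180, and 752 with its 2 groups alone, 875 to 3522 with 1 library left out (3522 without replicate 3), and 3388 with replicate 3 of Q2500/UAS_YUC4 and replicate 2 of J0121/UAS_YUC4 both left out. In J0121/UAS_YUC4 they numbered 2557, and 1170 to 1681 with 1 library left out. Of the 10 genes, those called higher in J0951/UAS_YUC4 went from 4 to 2 after median-of-ratios scaling and to between 2 and 3 with 1 library left out. In J0121/UAS_YUC4 they went from 4 to 2 after median-of-ratios scaling, to 2 after quantile normalization, to 2 with both named libraries left out and to between 1 and 3 with 1 library left out. All genes called higher after median-of-ratios scaling numbered 3432 in J0951/UAS_YUC4 and 824 in J0121/UAS_YUC4, and 920 in J0121/UAS_YUC4 after quantile normalization. The cause was not tested, except that fits with a library left out or of 2 groups alone hold fewer libraries.

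Pairing of same-numbered libraries was not clear. Of 45 correlations of their deviations, 10 exceeded 0.1 (median 0.0158, from -0.270 to 0.380). The median for libraries with other numbers was -0.000236. Of 18 libraries, 8 correlated best with their own number, and pairing between only some groups was not tested. With the replicate number as a block, genes called numbered 7813, 5321, 2264, 2498 and 127 in J0951/UAS_YUC4 and J0571/UAS_YUC4, then Q2500/UAS_YUC4 and J0121/UAS_YUC4, and last Q0990/UAS_YUC4, and the calls of PLT2 in J0951/UAS_YUC4 and JKD in J0121/UAS_YUC4 were lost (both adjusted p = 0.059).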
